A study of Mus musculus with 10 samples.

Results

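Immediate-early response genes are switched on within minutes of a stimulus by transcription factors that are already present in the cell, and their transcripts are short-lived. Growth factors and stress act through the ERK, JNK and p38 kinases on factors such as SRF, its ternary complex partners and CREB, which bind the promoters of these genes. In the lung epithelium they are known as early responders to injury, stretch and inflammation. Described here are 10 of them among 22180 measured genes: the AP-1 genes Fos, Fosb, Jun, Junb and Atf3, the zinc finger factor genes Egr1, Egr2 and Klf4, Ier2, and the phosphatase gene Dusp1. Members were picked by gene symbol, from probe sets whose platform annotation gave exactly 1 symbol, and each had 1 probe set.

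RNA was measured on 10 arrays of sorted mouse lung cells labelled as type 2 alveolar epithelial cells (AEC2s), 5 from each of 2 populations at postnatal day 4. Axin2+ cells came from Axin2CreERT2-TdTomato mice, which carry a tamoxifen-dependent Cre driven by Axin2, a Wnt feedback gene, and the red reporter TdTomato. The name of the line does not tell whether the Cre turns this reporter on. They were sorted for TdTomato and EpCAM and against CD31 and CD45, a gate that names no AEC2 protein. SP-C+ cells came from SftpcCreERT2-R26REYFP mice, whose Cre is driven by the surfactant protein C gene, and were sorted for YFP after lineage tracing for 24 h. The strain background of both lines is given as a mix of C57BL/6 with 129S6 and CD-1, and no other treatment is labelled. Day 3 and adult cells appear in a description that all samples carry, although every title and age label reads day 4. Because mouse line, reporter and gate all differ between the populations, they cannot be told apart from the cell label. Replicates are samples with their own number, not stated to be separate animals, so the p-values measure only the spread between these samples, which may be technical. The arrays read RNA of cells after sorting, so levels in the intact lung were not measured. Values are on the log2 scale, differences are Axin2+ minus SP-C+, and "called" means an adjusted p under 0.05 in limma (Benjamini-Hochberg over all genes).

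The labels were checked against marker genes. Type 2 cell markers lay above the array median for 12 of 12 genes in SP-C+ arrays. Type 1 cell markers did so too, for 12 of 12, so this count does not tell the 2 cell types apart. The mean level of the type 2 cell markers per array was 12.83 to 12.95 in Axin2+ and 13.03 to 13.10 in SP-C+ arrays. Of the 12 type 2 cell markers, 2 were called lower and 0 higher in Axin2+ arrays (0 higher at an unadjusted p under 0.05 in limma), with a median difference of -0.17. Markers of other epithelial cells were called higher in Axin2+ arrays, with 12 of 12 type 1 cell genes, 11 of 11 ciliated cell genes and 6 of 8 club cell genes. The type 1 cell markers averaged 11.54 to 11.90 per array in Axin2+ and 9.01 to 9.53 in SP-C+ arrays. For ciliated cell markers these ranges were 8.69 to 8.97 in Axin2+ and 5.73 to 6.05 in SP-C+ arrays, and for club cell markers 7.83 to 8.38 in Axin2+ and 6.64 to 7.03 in SP-C+ arrays. Endothelial markers averaged 6.30 to 6.52 per array in Axin2+ arrays. SP-C+ replicate 1 stood apart in these genes, of which 9 of 10 were highest there among the SP-C+ arrays, with a mean of 7.46 against 6.15 to 6.73 in the other SP-C+ arrays. Its leukocyte markers averaged 6.21, with 5.62 to 5.73 in the other SP-C+ arrays, and its mesenchymal markers 6.33, with 5.86 to 6.13. Type 1 cell markers averaged 9.53 in it, with 9.01 to 9.22 in the other SP-C+ arrays, and 7 of 12 were highest there. So were 2 of 12 type 2, 1 of 11 ciliated and 0 of 8 club cell markers. In bulk RNA, fewer cells of a type and less RNA per cell cannot be told apart.

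The promoter windows of 5 genes are shown because these genes span the results: Fos as the archetype, Egr2, which was called, Klf4 and Fosb, which varied most between arrays, and Dusp1, which had the narrowest range over all 10 arrays. Each runs from 250 bases before to 50 bases after the RefSeq start site, 5' to 3' on the gene's strand in build GRCm38.p6. The windows lie at chr12:85473640-85473939 on the plus strand for Fos, chr7:19309996-19310295 on the minus strand for Fosb, chr10:67537619-67537918 on the plus strand for Egr2, chr17:26508423-26508722 on the minus strand for Dusp1 and chr4:55532426-55532725 on the minus strand for Klf4. Capitals mark matches, on either strand, to TGACG (the core of a CREB site), TGACGTCA (the full CREB site, which contains TGACG), GCGNGGGCG (the EGR site) and the CArG box (the SRF site).
Fos: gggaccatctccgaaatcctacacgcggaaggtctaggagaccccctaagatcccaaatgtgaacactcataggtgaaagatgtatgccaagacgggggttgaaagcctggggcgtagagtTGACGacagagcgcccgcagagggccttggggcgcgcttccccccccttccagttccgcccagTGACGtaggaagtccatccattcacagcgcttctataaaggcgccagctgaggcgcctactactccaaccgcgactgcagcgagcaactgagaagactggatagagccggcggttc
Fosb: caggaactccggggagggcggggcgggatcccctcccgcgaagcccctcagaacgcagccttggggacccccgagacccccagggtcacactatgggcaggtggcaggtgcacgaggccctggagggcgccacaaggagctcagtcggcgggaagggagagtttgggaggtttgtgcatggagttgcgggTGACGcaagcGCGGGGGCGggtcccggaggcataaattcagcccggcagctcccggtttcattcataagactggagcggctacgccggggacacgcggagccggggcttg
Egr2: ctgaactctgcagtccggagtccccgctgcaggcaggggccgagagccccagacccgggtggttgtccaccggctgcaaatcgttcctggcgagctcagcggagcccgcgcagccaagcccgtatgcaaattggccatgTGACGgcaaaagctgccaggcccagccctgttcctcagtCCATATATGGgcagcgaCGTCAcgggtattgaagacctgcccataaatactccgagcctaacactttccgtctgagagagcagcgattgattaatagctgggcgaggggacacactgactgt
Dusp1: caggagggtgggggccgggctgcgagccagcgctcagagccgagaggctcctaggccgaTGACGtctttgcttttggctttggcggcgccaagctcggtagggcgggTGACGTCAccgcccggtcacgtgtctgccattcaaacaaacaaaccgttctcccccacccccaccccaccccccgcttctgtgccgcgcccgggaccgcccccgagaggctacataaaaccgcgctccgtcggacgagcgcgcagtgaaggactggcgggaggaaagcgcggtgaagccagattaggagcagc
Klf4: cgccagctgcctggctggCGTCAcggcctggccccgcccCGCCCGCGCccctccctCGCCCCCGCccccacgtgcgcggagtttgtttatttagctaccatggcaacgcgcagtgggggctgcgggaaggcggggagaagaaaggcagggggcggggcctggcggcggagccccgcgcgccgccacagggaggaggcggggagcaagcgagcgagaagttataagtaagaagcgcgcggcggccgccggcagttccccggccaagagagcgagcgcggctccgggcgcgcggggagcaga

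Windows of 8 of the 10 genes were searched, and Egr1 and Ier2 had none among them. Member windows on a chromosome set aside beforehand were not searched, whereas the shares over all windows include that chromosome. The counts below therefore say nothing about Egr1 and Ier2. Egr2 had 5 windows, and the one with the most matches was used, so its matches are not like those of genes with a single window. TGACG was found in 7 of the 8, Jun being the exception, and in 20.8% of all 32851 windows of this length. In the Fos window it began 129 and 66 bases before the start site, and in Egr2 111 and 55 bases before it. The full TGACGTCA was found in Dusp1 alone, 143 bases before the start (1.79% of all windows). Among the 8 windows, a CArG box was found in that of Egr2 alone, 72 bases before the start (1.63% of all windows). Sites outside the windows were not searched, so this count does not tell which members have an SRF site. The EGR site was found once in Fosb, 50 bases before the start, and in Klf4 at 211 and 194 bases before it (5.55% of all windows). The pattern TGANTCA, in which N is any base and which includes the AP-1 site, was in 0 of the 8 windows and in 7.81% of all windows. These matches describe letters in a window and are not measured binding sites.

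Of the 10 immediate-early genes, 1 was called between Axin2+ and SP-C+ cells. Egr2 was lower in Axin2+ arrays, and 0 members were called higher. At an unadjusted p under 0.05, limma gave 2 members lower, Egr2 and Klf4, and 0 higher. Over all genes 17.6% were called, 8.61% higher and 8.95% lower, so 1 of 10 is no larger a share than the background. The groups overlapped in all 10 members, whereas they did not overlap in 15.0% of all genes. The members' median difference was -0.06, beside -0.04 over all genes. In 9 of the 10 members the difference between groups was smaller than the range within each group, and Egr2 was the exception. With each array shifted to a common median the split of calls over all genes moved to 1561 higher and 4412 lower (26.1% higher), against 1909 higher and 1985 lower in the values as deposited (49.0% higher).

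**Figure D1:**
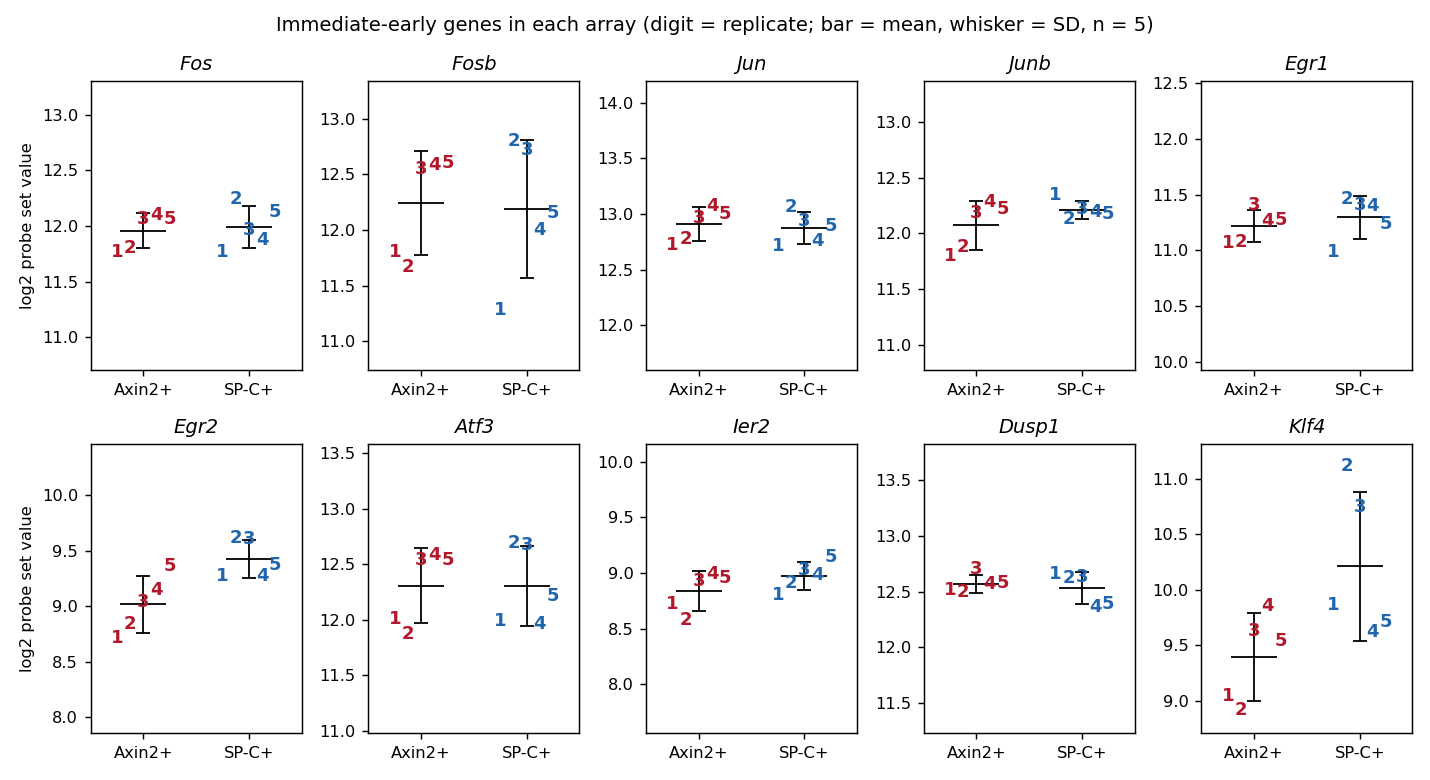
Log2 level of each of the 10 genes in each array, Axin2+ left and SP-C+ right, drawn as its replicate number, with the group mean (bar) and SD (whisker, n = 5). The groups overlap in every panel, and Axin2+ replicates 1 and 2 are the lowest Axin2+ arrays in all 10.

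The Fos and Jun proteins pair through leucine zippers to form AP-1, the dimer that binds early and later target promoters. Fos, the founding AP-1 subunit, had log2 values of 11.77, 11.80, 12.06, 12.10 and 12.06 in Axin2+ replicates 1 to 5, and 11.76, 12.24, 11.96, 11.88 and 12.12 in SP-C+ replicates 1 to 5. Axin2+ replicates 1 and 2 and SP-C+ replicate 1 were the 3 lowest arrays, so each group held low and high arrays. The difference was -0.03 ± 0.11 (SE, n = 5 arrays each, adjusted p = 0.880 in limma), with a 95% interval of -0.27 to 0.20.

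Fosb, which encodes a Fos paralog that accumulates on repeated stimulation in brain as a truncated form, varied far more. It had 11.80, 11.67, 12.55, 12.59 and 12.60 in Axin2+ replicates 1 to 5, and 11.28, 12.80, 12.72, 12.00 and 12.15 in SP-C+ replicates 1 to 5. The lowest and the highest of the 10 arrays were both SP-C+ arrays, replicates 1 and 2. The span from lowest to highest was 1.91-fold in Axin2+ and 2.87-fold in SP-C+ arrays, and the difference between group means was 0.05 ± 0.28 (SE, n = 5 arrays each, adjusted p = 0.930 in limma, 95% interval -0.56 to 0.67). Its SD exceeded that of 98.6% of all genes in Axin2+ and 98.7% in SP-C+ arrays.

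Jun, the main partner of Fos and a JNK substrate, had 12.72, 12.78, 12.97, 13.07 and 13.00 in Axin2+ replicates 1 to 5, and 12.72, 13.07, 12.94, 12.76 and 12.90 in SP-C+ replicates 1 to 5. Each group ran from about the same low to about the same high value. The difference was 0.03 ± 0.10 (SE, n = 5 arrays each, adjusted p = 0.864 in limma, 95% interval -0.17 to 0.24).

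Junb, a Jun paralog that activates AP-1 sites less strongly than Jun, behaved differently among the SP-C+ arrays. It had 11.79, 11.88, 12.19, 12.28 and 12.22 in Axin2+ replicates 1 to 5, and 12.35, 12.13, 12.22, 12.19 and 12.17 in SP-C+ replicates 1 to 5. SP-C+ replicate 1, the lowest SP-C+ array for Fos, Fosb and Jun, was the highest for Junb. The difference was -0.14 ± 0.10 (SE, n = 5 arrays each, adjusted p = 0.415 in limma, 95% interval -0.36 to 0.08), and Axin2+ replicates 1 and 2 lay below all 5 SP-C+ arrays.

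Atf3, a leucine zipper factor of the ATF family that is induced by many stresses and represses transcription as a homodimer, had 12.01, 11.88, 12.54, 12.58 and 12.54 in Axin2+ replicates 1 to 5. It had 11.99, 12.69, 12.67, 11.96 and 12.21 in SP-C+ replicates 1 to 5. Axin2+ replicates 3, 4 and 5 and SP-C+ replicates 2 and 3 were high, and the other arrays of both groups were low. The group means were 12.31 ± 0.34 in Axin2+ and 12.31 ± 0.36 in SP-C+ arrays (SD, n = 5 each), and the 95% interval of the difference was -0.40 to 0.41 (adjusted p = 0.993 in limma).

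Egr1 encodes a zinc finger factor that binds GC-rich sites and is induced through SRF. It had 11.07, 11.08, 11.41, 11.26 and 11.27 in Axin2+ replicates 1 to 5, and 10.99, 11.46, 11.41, 11.40 and 11.24 in SP-C+ replicates 1 to 5. SP-C+ replicate 1 was the lowest of all 10 arrays. The difference was -0.08 ± 0.11 (SE, n = 5 arrays each, adjusted p = 0.673 in limma, 95% interval -0.31 to 0.15).

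Egr2, a relative of Egr1 known for its roles in myelinating cells and lymphocytes, was 1.33-fold lower in Axin2+ arrays. It had 8.71, 8.84, 9.04, 9.14 and 9.36 in Axin2+ replicates 1 to 5, and 9.27, 9.61, 9.60, 9.28 and 9.37 in SP-C+ replicates 1 to 5. Axin2+ replicates 1 to 4 lay below all SP-C+ arrays, and Axin2+ replicate 5 lay among them. The difference was -0.41 ± 0.12 (SE, n = 5 arrays each, adjusted p = 0.0392 in limma), with a 95% interval of -0.68 to -0.14. The call ended in 6 of the 10 fits that left out 1 array, with an adjusted p of 0.0923 without Axin2+ replicate 1, 0.0933 without Axin2+ replicate 2, 0.0743 without Axin2+ replicate 3, 0.0894 without SP-C+ replicate 2, 0.0910 without SP-C+ replicate 3 and 0.0535 without SP-C+ replicate 5. Without both Axin2+ replicates 1 and 2 the difference was -0.25 (adjusted p = 0.239 in limma). They were left out because they were the lowest, so that a smaller difference follows by construction. Without SP-C+ replicate 1 the difference was -0.45 (adjusted p = 0.0383 in limma). That was the lowest SP-C+ array for Egr2, so the wider difference also follows by construction.

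Klf4, a zinc finger factor of differentiating epithelia that is also induced early by serum and shear in other cells, had the largest difference of the 10. It had 9.05, 8.92, 9.63, 9.85 and 9.54 in Axin2+ replicates 1 to 5, and 9.87, 11.11, 10.74, 9.62 and 9.71 in SP-C+ replicates 1 to 5. SP-C+ replicates 2 and 3 were well above the other 8 arrays, while SP-C+ replicates 4 and 5 lay within the range of Axin2+ replicates 3, 4 and 5. The difference was -0.81 ± 0.29 (SE, n = 5 arrays each, adjusted p = 0.0696 in limma, 95% interval -1.43 to -0.19), so it was not called. It passed without SP-C+ replicate 4 (-0.96, adjusted p = 0.0405), without SP-C+ replicate 5 (-0.94, adjusted p = 0.0470) and after median centring (-0.91, adjusted p = 0.0342). SP-C+ replicates 4 and 5 were its lowest SP-C+ arrays, so leaving either out widens the difference by construction. Without SP-C+ replicates 1, 2 and 3, its highest SP-C+ arrays, the difference was -0.27 (adjusted p = 0.534). That smaller difference also follows by construction, and only SP-C+ replicates 4 and 5 remained in that fit.

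Ier2, which encodes a small nuclear protein of the early growth factor response, had 8.72, 8.58, 8.93, 8.99 and 8.96 in Axin2+ replicates 1 to 5. It had 8.80, 8.91, 9.02, 8.98 and 9.15 in SP-C+ replicates 1 to 5. Axin2+ replicates 1 and 2 lay below all other arrays. The difference was -0.14 ± 0.10 (SE, n = 5 arrays each, adjusted p = 0.407 in limma, 95% interval -0.35 to 0.08).

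Dusp1 encodes a dual-specificity phosphatase that removes phosphate from p38 and JNK and so ends the signal that induced it. It had 12.51, 12.50, 12.70, 12.57 and 12.58 in Axin2+ replicates 1 to 5, and 12.66, 12.63, 12.63, 12.36 and 12.39 in SP-C+ replicates 1 to 5. SP-C+ replicates 4 and 5 were the lowest of the 10 arrays, and the other 8 lay within a narrow band. The difference was 0.04 ± 0.08 (SE, n = 5 arrays each, adjusted p = 0.807 in limma, 95% interval -0.14 to 0.22).

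**Figure D2:**
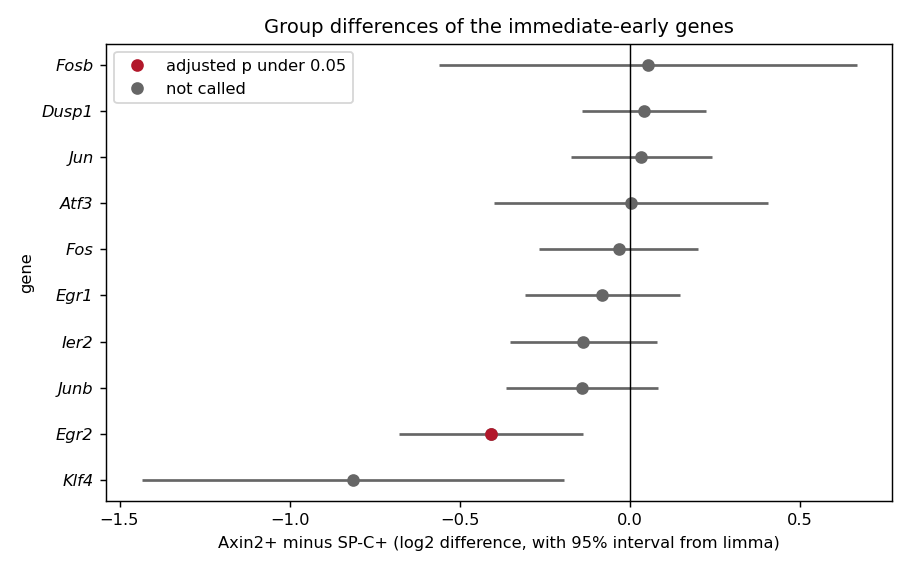
Difference in log2 level, Axin2+ minus SP-C+, for each of the 10 genes with its 95% interval. Egr2 was called at an adjusted p of 0.0392, Klf4 was not called at 0.0696, and the other 8 intervals include 0.

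Arrays with the same label differed from each other in a recurring order. In all 10 members Axin2+ replicates 1 and 2 were the lowest of the 5 Axin2+ arrays, an order found in 14.3% of all genes, and noticed after the values were seen. Averaged over the 10 genes, each centred on its own mean, Axin2+ replicates 1 to 5 stood at -0.31, -0.34, 0.07, 0.12 and 0.09, and SP-C+ replicates 1 to 5 at -0.16, 0.34, 0.26, -0.08 and 0.01. Fosb, Atf3 and Klf4 made the widest steps between arrays, with an SD above that of 98.6%, 95.7% and 97.6% of all genes in Axin2+ arrays and 98.7%, 91.7% and 99.0% in SP-C+ arrays. Dusp1 had the lowest SD of the 10 in Axin2+ arrays, above that of 18.2% of all genes there and of 37.0% in SP-C+ arrays. Junb had the lowest in SP-C+ arrays, with an SD above that of 82.6% of all genes in Axin2+ arrays and of 7.74% in SP-C+ arrays.

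**Figure D3:**
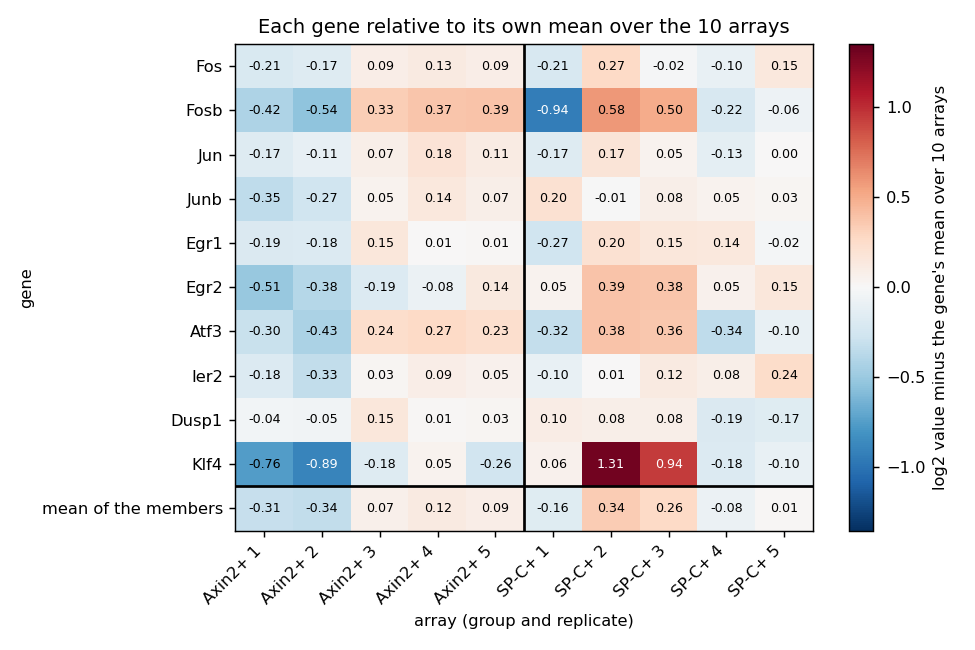
Level of each gene in each array, centred on the gene's mean over the 10 arrays, in log2 units, Axin2+ replicates left and SP-C+ replicates right. Axin2+ replicates 1 and 2 are below the gene's mean throughout, and SP-C+ replicates 2 and 3 are highest for Klf4 and Fosb.

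The SP-C+ arrays had a less uniform order. SP-C+ replicates 2 and 3 were the highest SP-C+ arrays in 6 members, namely Fosb, Jun, Egr1, Egr2, Atf3 and Klf4 (13.6% of all genes have this order). SP-C+ replicate 1, the array with the highest endothelial markers, was the lowest in 6, namely Fos, Fosb, Jun, Egr1, Egr2 and Ier2 (23.3% of all genes). The part of those other cells in its values was not tested. Junb and Dusp1 were highest in that array (21.6% of all genes), and SP-C+ replicates 4 and 5 were lowest for Dusp1 and Klf4 (14.8% of all genes). Without SP-C+ replicate 1, Egr2 remained called and the other 9 members were not. That array was the lowest SP-C+ array for Egr2, so a wider Egr2 difference without it follows by construction.

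Of the 12 heat-shock genes 8 had Axin2+ replicates 1 and 2 as their lowest Axin2+ arrays, as did 4 of 10 integrated stress response genes. Cell type markers followed the split of the Axin2+ arrays unevenly. The order with Axin2+ replicates 1 and 2 lowest was found in 7 of 12 type 1 cell markers, 3 of 11 ciliated cell markers, 1 of 12 type 2 cell markers, and 0 of 8 club, 0 of 12 leukocyte, 0 of 10 endothelial and 0 of 10 mesenchymal markers. The mean of the type 1 cell markers was 11.63 and 11.54 in Axin2+ replicates 1 and 2, and 11.72 to 11.90 in Axin2+ replicates 3 to 5. The part of type 1 cells in the levels of the early genes was not tested.

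The genes with the profile nearest to the members' mean over the 10 arrays, by mean absolute difference of centred log2 values, were Ensa (0.063), Smarca5 (0.065), Nfe2l2 (0.069), Klhl30 (0.070) and Tdp2 (0.071). For Fos alone they were Fyttd1 (0.035), Ddx20 (0.051), Napg (0.053), Ensa (0.056) and Hspa4 (0.067). All points share the same arrays, so likeness here describes these 10 arrays only. None of these 9 genes was called between the groups.

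Other early response genes were read from 3 further lists. Together 4 of 56 measured genes were called higher in Axin2+ arrays and 11 lower (26.8% called, beside 17.6% of all genes), with a median difference of -0.16. In 40 of the 56, Axin2+ replicates 1 and 2 were again the lowest Axin2+ arrays. Without those replicates, 6 of the 56 were called higher and 5 lower. They were left out because they were the lowest, which raises the Axin2+ mean of every gene with that order, so this change of the split follows from the choice of arrays. SP-C+ replicates 4 and 5 were the lowest SP-C+ arrays in 28 of the 56, an order found in 14.8% of all genes. Without SP-C+ replicates 1, 2 and 3 the counts were also 6 higher and 5 lower. For genes with that order, this choice of arrays lowers the SP-C+ mean by construction.

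Among 11 other AP-1 family genes 2 were higher, 0 were lower (1 at an unadjusted p under 0.05 in limma, and 1 called without Axin2+ replicate 5), and the median difference was -0.06. Batf, a leucine zipper factor that pairs with Jun proteins and is best known in lymphocytes, was 1.96-fold higher in Axin2+ arrays (0.97 ± 0.16 SE, n = 5 arrays each, adjusted p = 0.000745 in limma). Jdp2, a partner of Jun that represses AP-1 targets, was 1.80-fold higher (0.84 ± 0.15, adjusted p = 0.00129). Neither call ended when any 1 array was left out.

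Of 15 other early transcription factors, 3 fell in Axin2+ arrays and 0 rose (1 higher at an unadjusted p under 0.05 in limma, and 1 called without Axin2+ replicate 1), with a median of -0.13. Myc, which drives growth and ribosome synthesis, was lower by 1.65-fold (-0.72 ± 0.16 SE, n = 5 arrays each, adjusted p = 0.00835). Nfkbiz, a nuclear cofactor of NF-kB, differed by -0.50 ± 0.13 (adjusted p = 0.0146), and Bhlhe40, a repressor that acts on the circadian clock, by -0.32 ± 0.09 (adjusted p = 0.0316). Without Axin2+ replicates 1 and 2 none of the 3 was called, with differences of -0.66 for Myc (adjusted p = 0.0556), -0.35 for Nfkbiz (0.110) and -0.28 for Bhlhe40 (0.156). Without SP-C+ replicates 1, 2 and 3 none was called either, with a smaller difference for Myc (-0.31, adjusted p = 0.186) and Nfkbiz (-0.31, 0.240) and a larger one for Bhlhe40 (-0.39, 0.0511). Replicates 1, 2 and 3 were the highest SP-C+ arrays for Myc and Nfkbiz, so the smaller differences follow by construction. Bhlhe40 also missed the threshold without any 1 of Axin2+ replicates 1 to 4 or SP-C+ replicates 1, 3 and 4, with an adjusted p of up to 0.0817.

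Of 30 other early effectors and feedback genes, 2 rose and 8 fell, with a median of -0.20, and 4 rose without SP-C+ replicate 1. The 2 that rose encode secreted matricellular proteins that YAP and SRF also induce, Ccn2 (7.61-fold, 2.93 ± 0.16 SE, n = 5 arrays each, adjusted p = 5.37e-08 in limma) and Ccn1 (2.65-fold, 1.41 ± 0.18, adjusted p = 0.000127). Dusp4, a nuclear phosphatase of ERK and JNK and a relative of Dusp1, was 1.94-fold lower (-0.96 ± 0.12, adjusted p = 6.99e-05). Ier5l was 1.62-fold lower (-0.70 ± 0.09, adjusted p = 0.000158), and Per1, a circadian clock gene that CREB induces, 1.45-fold lower (-0.53 ± 0.13, adjusted p = 0.0148).

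**Figure D4:**
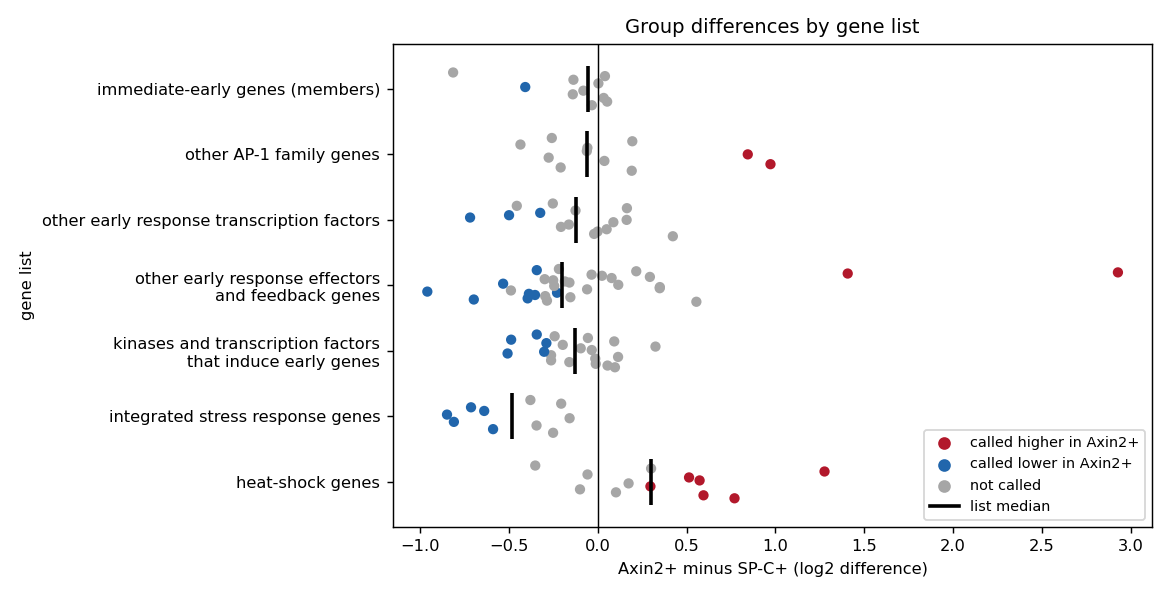
Difference in log2 level, Axin2+ minus SP-C+, of every measured gene in each list, with called genes marked and the list's median drawn. The 10 immediate-early genes lie near 0 but for Egr2 and Klf4, while Ccn2 at 2.93 and Ccn1 at 1.41 lie far above the other early response genes.

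Of 20 kinases and transcription factors that induce early genes, 5 fell in Axin2+ arrays and 0 rose (0 higher at an unadjusted p under 0.05 in limma), with a median of -0.13. Map2k1, which encodes the kinase MEK1 that activates ERK, differed by -0.51 ± 0.09 (SE, n = 5 arrays each, adjusted p = 0.00223). Rps6ka3, the ERK-activated kinase RSK2, differed by -0.49 ± 0.08 (adjusted p = 0.00117), and Mapkapk3, a kinase activated by p38, by -0.34 ± 0.08 (adjusted p = 0.0105). Mapkapk3 stood at -0.33 without Axin2+ replicates 1 and 2 (adjusted p = 0.0652) and at -0.20 (adjusted p = 0.186) without SP-C+ replicates 1, 2 and 3. The latter were its highest SP-C+ arrays, so the smaller difference without them follows by construction. For the list, the count of 5 became 10 with median centring, 2 without Axin2+ replicates 1 and 2, and 3 without SP-C+ replicates 1, 2 and 3. Srf itself, singled out after its values were seen, had 9.87, 9.84, 10.27, 10.42 and 10.36 in Axin2+ replicates 1 to 5, and 9.75, 10.10, 10.34, 10.04 and 10.04 in SP-C+ replicates 1 to 5. Axin2+ replicates 1 and 2 were its lowest Axin2+ arrays, an order that 5 of the 20 genes of this list had and 15 did not, and it was not called (0.10 ± 0.14, adjusted p = 0.706 in limma).

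Stress genes were read beside the members, since Atf3 also belongs to the integrated stress response. Of 10 integrated stress response genes 5 were lower and 0 higher in Axin2+ arrays (0 higher at an unadjusted p under 0.05 in limma), with a median of -0.48. Sesn2, which restrains mTORC1, differed by -0.85 ± 0.13 (SE, n = 5 arrays each, adjusted p = 0.000714), Chac1, a glutathione-degrading enzyme, by -0.81 ± 0.25 (adjusted p = 0.0438) and Vldlr, a lipoprotein receptor, by -0.71 ± 0.09 (adjusted p = 7.09e-05). The count of 5 became 8 with median centring and 3 without any 1 of Axin2+ replicates 2 and 3 or SP-C+ replicates 2 and 3, and Chac1 missed the threshold without any 1 of the Axin2+ replicates or of SP-C+ replicates 2 and 3 (adjusted p up to 0.101). The list's mean per array was 8.10 to 8.30 in Axin2+ arrays, and 9.09, 8.86, 8.85, 8.41 and 8.37 in SP-C+ replicates 1 to 5. Without SP-C+ replicates 1, 2 and 3 the differences were -0.53 for Sesn2 (adjusted p = 0.00209), -0.23 for Chac1 (0.394) and -0.55 for Vldlr (0.00383). Those replicates were the highest SP-C+ arrays for each of these genes, so smaller differences follow by construction. Of 12 heat-shock genes 6 rose and 0 fell (0 lower at an unadjusted p under 0.05 in limma), led by Hsph1, an exchange factor of Hsp70, at 1.28 ± 0.23 (adjusted p = 0.00207). Hspa1a differed by 0.77 ± 0.12 (adjusted p = 0.000472) and Hspa1b by 0.60 ± 0.18 (adjusted p = 0.0334). The last 2 encode near-identical Hsp70 copies, so their probe sets may share signal, and Hspa1b missed the threshold without any 1 of Axin2+ replicates 3 to 5 or SP-C+ replicates 1, 4 and 5 (adjusted p up to 0.0838). The count of 6 became 3 without any 1 of Axin2+ replicates 3 to 5 or SP-C+ replicates 1 and 4, and it was also 3 with median centring. Over the 23 alternatives, heat-shock genes called lower numbered 0 to 1, as did integrated stress response genes called higher.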

How the data were processed

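Total RNA (100 ng a sample) was amplified, biotin-labelled and measured on Affymetrix arrays, per the labels' protocols. The deposited values of 41345 probe sets were normalized by the authors and are taken as log2 from their range (1.69 to 14.16; array medians 5.89 to 5.97). Tools named in the submitters' processing notes are oligo, RMA and limma, with no version or role. RMA equalizes arrays and compresses changes of dim genes. The log base and the order of steps are not given in the sources used here.

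Platform annotation, which may be old, gave 1 symbol to 23521 probe sets, several to 1814 and none to 16010. The brightest probe set was kept for each of 22180 genes. Groups came from sample titles. The comparison used limma 3.58.1 under R 4.3.3 (lmFit, eBayes, two-sided, no covariates), adjusted over all genes, and the fit was tested on simulated data. The number of arrays limits the precision. Alternatives were 23: normalization, filters, probe set rule, variance model, array weights, a replicate block, a stricter threshold and leaving out arrays; leaving out Axin2+ replicates 1 and 2 was chosen after seeing the data. Members and lists (182 further list genes, 173 measured) were chosen with earlier results of these data known. Named were the members, up to 3 called rises and falls of each list that is not a marker list, 1 of each marker list, and the 5 genes nearest in profile. The marker genes named by this rule are given with their values in the closing section. Promoter windows are from RefSeq.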

Additional observations from a re-analysis of the deposited data

Results flagged for a closer look

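Across 45 named genes, 90 groups of 5 arrays were examined for an array far from the others, and 2 were found, 0 of them in the 10 immediate-early genes. Chance gives such an array in about 1 in 20 groups. Vldlr was low in Axin2+ replicate 3, at 9.12 against 9.27 in the nearest array, a gap of 0.778 of the group's range. Hspa4, near in profile to Fos, was low in Axin2+ replicate 2, at 10.33 against 10.54 in the nearest array, a gap of 0.888 of the group's range.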

How the results depend on the processing

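Over the 23 alternatives the count of members called higher was 0 throughout. The count called, and called lower, was 1 in the values as reported, and 0 with all probe sets, quantile normalization, the replicate block, an adjusted p under 0.01, without Axin2+ replicates 1 and 2, and without SP-C+ replicates 1, 2 and 3. It was 2 with median centring and without SP-C+ replicates 4 and 5, and 0 to 2 over the 10 fits that left out 1 array. The Egr2 difference of -0.41 missed the threshold with all probe sets (-0.41, adjusted p = 0.0768), quantile normalization (-0.38, 0.0520), the replicate block (-0.41, 0.0650), an adjusted p under 0.01 (-0.41), without Axin2+ replicates 1 and 2 (-0.25, 0.239) and without SP-C+ replicates 1, 2 and 3 (-0.31, 0.273). It ran from -0.49 to -0.33 when 1 array was left out, and its adjusted p from 0.0128 to 0.273 over all alternatives. Klf4 passed with median centring (-0.91, adjusted p = 0.0342) and without SP-C+ replicates 4 and 5 (-1.18, 0.0134), its lowest SP-C+ arrays, so that a wider difference follows by construction. The Klf4 difference ran from -0.96 to -0.59 when 1 array was left out, and had an adjusted p of 0.0134 to 0.534 over all alternatives. The cause was not tested. The other 8 members were called under none of them. All genes called numbered 3894, 5973 with median centring and 2249 at an adjusted p under 0.01. Genes called in the 6 lists that hold no markers numbered 31, 19 without Axin2+ replicates 1 and 2 and 17 at an adjusted p under 0.01. Other early genes called lower numbered 11, 5 without Axin2+ replicates 1 and 2, 5 without SP-C+ replicates 1, 2 and 3, and 6 at an adjusted p under 0.01. When 1 array was left out, heat-shock genes called higher numbered 3 to 5 against 6, and integrated stress response genes called lower 3 to 7 against 5. With median centring the inducing kinases and factors called lower numbered 10 against 5, the integrated stress response genes 8 against 5 and the heat-shock genes called higher 3 against 6. With the replicate block the inducing kinases and factors called lower numbered 3, and with all probe sets 3 stress response genes were lower and 3 heat-shock genes higher. Without Axin2+ replicates 1 and 2, the early transcription factors called lower numbered 0 and the inducing kinases and factors 2, beside 0 and 3 without SP-C+ replicates 1, 2 and 3. Median centring shifted all genes by -0.093. Arrays with the same replicate number did not deviate together (correlations -0.229 to 0.013), so the numbers were not taken to pair the samples.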

Other observations

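Marker genes of the cell types that the sorts could hold differed between the groups as follows, each with n = 5 per group and an adjusted p from limma. Spock2, a proteoglycan gene of type 1 cells, was 23.2-fold higher in Axin2+ arrays (4.54 ± 0.11 SE, adjusted p = 1.71e-10). Cdhr3, a cadherin-related gene of ciliated cells, was 20.6-fold higher (4.36 ± 0.17, adjusted p = 1.89e-09), and Scgb1a1, the secretoglobin of club cells, 6.64-fold higher (2.73 ± 0.29, adjusted p = 2.16e-05). Cebpa, a transcription factor of type 2 cells, was 1.54-fold lower (-0.62 ± 0.07, adjusted p = 3.81e-05). Of the 12 leukocyte genes 1 was called higher, 1 lower and 10 were not called, with a median difference of -0.29. Csf1r, the receptor of a macrophage growth factor, was 5.67-fold higher (2.50 ± 0.15, adjusted p = 8.25e-08) and Adgre1, a macrophage surface receptor, 1.19-fold lower (-0.26 ± 0.08, adjusted p = 0.0469). Pdgfra, a receptor of mesenchymal cells, was 1.41-fold lower (-0.49 ± 0.13, adjusted p = 0.0164). Of the 10 endothelial markers 0 were called in limma, and 1 was lower at an unadjusted p under 0.05. Adgre1 missed the threshold without any 1 of Axin2+ replicates 2, 3 and 5 or of the 5 SP-C+ replicates (adjusted p up to 0.113), and Pdgfra without Axin2+ replicates 1 and 2 (0.0720).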
